A study of Anopheles gambiae with 60 samples.

Results

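Whole adult females and whole adult males of the malaria mosquito Anopheles gambiae were compared on 8 Affymetrix arrays, 4 female and 4 male, out of 60 arrays in the series. The arrays were chosen by their titles. The remaining 52 arrays held dissected tissue. These were ovary, testis and the accessory gland of males, and from both sexes the head, carcass, midgut, Malpighian tubules and salivary gland. They served here to trace a whole-body difference to the tissue where its probe set was brightest. They also served for sex differences inside a tissue, for detection in a single tissue and for joining genes to probe sets. According to the study's methods, the females were unmated, were given blood as young adults and were sampled at intervals after it, while the males were unmated siblings of the same age, with no blood meal described for them. The sample labels gave collections at 24, 48 and 72 h, and 5 days of age for both sexes, and worded the blood meal for both. Each of the 4 biological replicates of a sex held equal amounts of RNA from the 3 collection times, several mosquitoes to a time, and was amplified over 2 cycles. Sex, blood feeding and the egg development that follows it cannot be told apart in this comparison, and in whole bodies fewer cells of a type cannot be told apart from less RNA per cell.

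A whole insect sums the RNA of organs of very unequal size. After a blood meal a female mosquito matures a batch of eggs, and her ovaries grow to fill much of the abdomen while the fat body makes yolk proteins. In males the testes make sperm, and the accessory glands make the proteins passed to the female with the sperm. Midgut digests blood or sugar, Malpighian tubules are the excretory organ, salivary glands of females secrete the saliva used in blood feeding, and the carcass holds the flight muscle, most of the fat body and the cuticle.

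A probe set was tested when its log2 intensity was at least 5 (an intensity of 32) on at least 3 of 4 arrays of either sex. That held for 5821 of the 16884 probe sets whose identifiers begin with Ag: 5033 in females, 4773 in males and 3985 in both. With 4 arrays a sex, precision is set by the array number. Replicates lay close together, with correlations of 0.96 to 0.98 between female arrays and 0.94 to 0.99 between male arrays, against 0.52 to 0.61 between arrays of different sex. The 9 hybridisation control probe sets, which measure labelled bacterial and phage transcripts added to the hybridisation mix in fixed amounts, were lower on all 4 female arrays than on all 4 male arrays, by a median of 1.09 log2 (range 0.61 to 1.68). In the 5 dissected somatic tissues the median difference of the same controls, female minus male, lay between -0.52 and 0.91 log2. The results that follow are on the deposited scale. A shift of the arrays to equal controls was run for the whole-body counts, the tissue, cluster and arm groups, the named genes, single-tissue detection and the comparisons of body with tissue, but not for the tracing or for calls inside the dissected tissues.

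Females exceeded males by at least 2-fold, with an adjusted p under 0.05, for 1784 probe sets (30.6% of those tested), called female-biased. Males exceeded females for 1661 (28.5%), called male-biased, so that 59.2% were called in either direction. With the controls made equal the split was 3426 female-biased (56.6%) against 762 male-biased (12.6%) of 6048, while quantile normalization (1686 and 1712) and centring (1772 and 1673) kept the sexes near balance. Differences were large in both directions. The median size was 2.03 log2, or 4.07-fold, for female-biased and 2.02 log2, or 4.06-fold, for male-biased probe sets, and 77 female-biased against 45 male-biased probe sets differed by at least 5 log2. All 4 female arrays lay above all 4 male arrays in 98.0% of female-biased probe sets, and the male arrays lay above the female ones in 96.4% of male-biased probe sets; over all tested probe sets the sexes did not overlap in 72.2%. The other sex was under the limit on all 4 arrays for 704 female-biased and 504 male-biased probe sets.

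**Figure D1:**
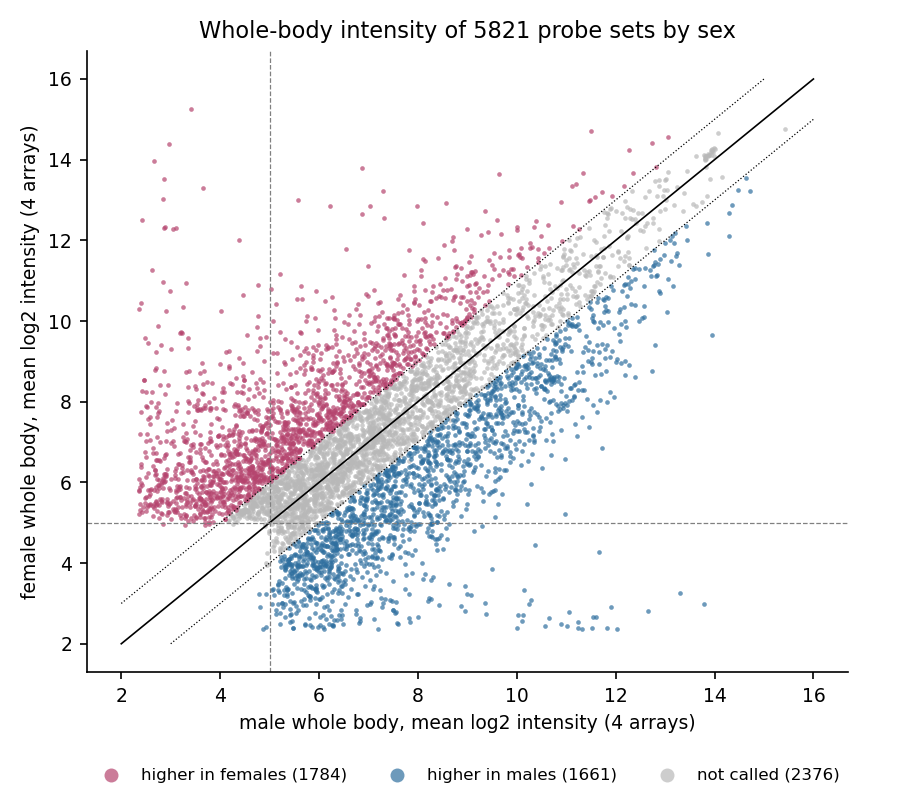
Mean log2 intensity of each tested probe set in female whole bodies (vertical axis) and male whole bodies (horizontal axis), 4 arrays each; the solid line marks equality, dotted lines a 2-fold difference and dashed lines the log2 limit of 5. Of 5821 points, 1784 are higher in females and 1661 in males, and many of them lie near the floor in the other sex.

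The largest differences came from probe sets that could not be joined to a gene, and the 2 largest in each direction are given by their chromosome arm. The largest female-biased one, on arm 2R, measured 15.17, 15.27, 15.36 and 15.27 log2 in female bodies, against 3.97, 2.82, 3.62 and 3.22 in male bodies. With males set to the limit, it was higher in females by at least 1232-fold. It was also bright in dissected female carcass (15.50), salivary gland (15.48) and head (15.09), while male carcass stood at 3.12. The next, on 3R, measured 14.62, 14.67, 13.67 and 14.61 in females and lay between 2.81 and 3.07 in males, at least 672-fold higher in females. Its brightest tissue was the ovary (14.79), and female carcass gave 4.70. Female arrays lay far above male arrays for both, and the pair differed in the carcass. In the other direction, the largest male-biased one, on 3R, measured 2.95, 3.04, 2.95 and 2.97 in females and 13.64, 13.96, 13.68 and 13.88 in males, at least 443-fold higher in males, and stood at 14.70 in the accessory gland. The next, on 3L, lay between 2.87 and 3.46 in females and between 13.17 and 13.42 in males, and reached 14.89 in the testis, 12.44 in male salivary gland and 11.07 in male head.

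Each tested probe set was assigned to 1 of 8 dissected tissues, the one with the highest mean log2 intensity. For the 5 somatic tissues the means of both sexes were averaged with equal weight, which lowers probe sets bright in 1 sex only. Ovary, testis and accessory gland entered with their 1 sex. Female-biased probe sets were brightest in the ovary in 1061 of 1784 cases (59.5%), against 30.2% of all tested probe sets. Male-biased probe sets spread over the body: 517 of 1661 (31.1%) were brightest in carcass, 347 (20.9%) in head and 274 (16.5%) in Malpighian tubules, while testis held 174 (10.5%) and accessory gland 123 (7.41%). Over all tested probe sets these 5 tissues held 13.5%, 7.23%, 13.6%, 18.6% and 7.35%. Testis thus held a smaller share of male-biased probe sets than of all tested ones, and accessory gland a nearly equal share. Tissues were normalized separately, so that levels set across them, here and below, are approximate. When females were traced among female tissues alone, the ovary took 1425 of 1784 (79.9%, with 41.9% of all tested). Males traced among male tissues alone gave the carcass 598 of 1661 (36.0%, with 17.4% of all tested) and the head 328 (19.7%, with 9.16%).

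**Figure D2:**
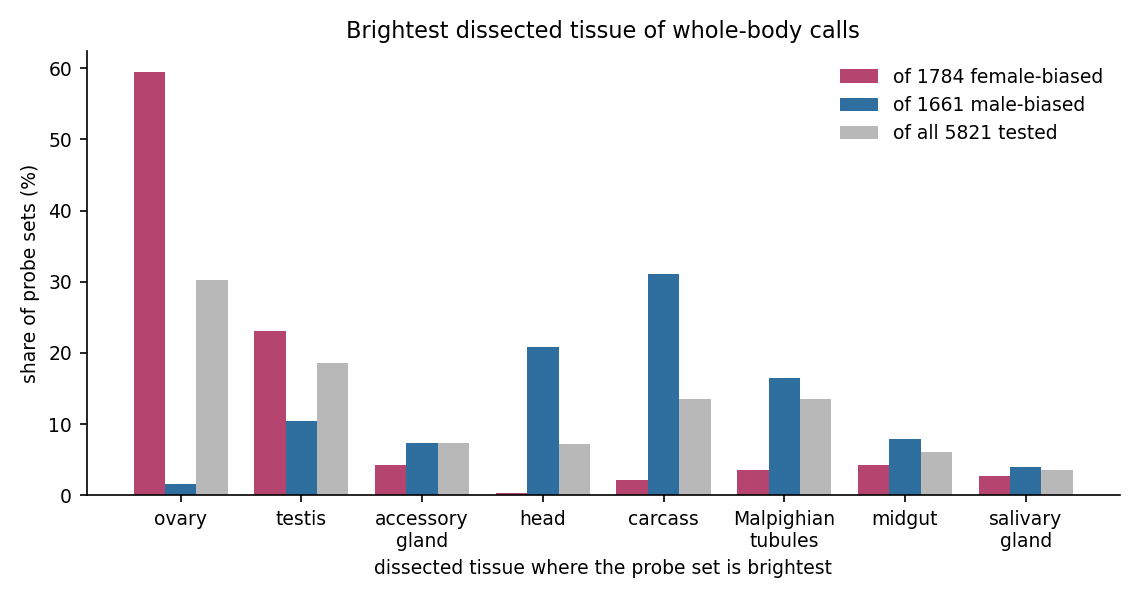
Share (%) of female-biased, male-biased and all tested probe sets that were brightest in each dissected tissue. The ovary holds 59.5% of female-biased and 1.63% of male-biased probe sets, and head and carcass together hold most of the excess among male-biased ones.

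To read the tissues apart more sharply, 2648 probe sets at least 1 log2 brighter in their tissue than in every other were taken. Among 897 such ovary probe sets, 637 were female-biased in the whole body (71.0%, with 30.6% of all tested) and 10 male-biased (1.11%), and the median difference, female minus male, was 1.87 log2. Head probe sets formed the opposite pole: 3 of 210 were female-biased and 196 male-biased (93.3%, with 28.5% of all tested), with a median of -2.51 log2. Carcass followed with 20 of 334 female-biased and 241 male-biased (72.2%), median -1.73 log2. For the ovary, head and carcass this direction was the same under quantile normalization, centring and equal controls, with medians of 2.91, -1.52 and -0.64 log2 under equal controls. Malpighian tubules (28 female-biased and 140 male-biased of 291) and accessory gland (17 and 64 of 130) had medians of -0.91 and -0.95 log2, and midgut (55 and 73 of 198) and salivary gland (22 and 31 of 68) had -0.26 and -0.54 log2. Under equal controls the medians of these 4 tissues turned to 0.28, 0.23, 0.85 and 0.92 log2. The median of all tested probe sets moved as well, from 0.10 to 1.30 log2, and all 4 stayed below it. In the accessory gland 41 were then female-biased and 43 male-biased of 124. Testis had 186 female-biased and 119 male-biased of 520 (35.8% and 22.9%), with a median of 0.45 log2, and of 1.57 log2 under equal controls.

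The same probe sets were followed on each array, as their median deviation from the mean of the 8 body arrays. Ovary probe sets deviated by 0.77 to 1.05 log2 on female arrays and by -1.09 to -0.84 on male arrays. Head probe sets deviated by -1.38 to -0.88 on female arrays and by 1.16 to 1.37 on male arrays. The sexes did not overlap for ovary, testis, accessory gland, head, carcass and Malpighian tubules, whereas they overlapped for midgut (-0.40 to 0.05 on female and -0.11 to 0.35 on male arrays) and salivary gland (-0.38 to -0.09 on female and -0.25 to 0.47 on male arrays).

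**Figure D3:**
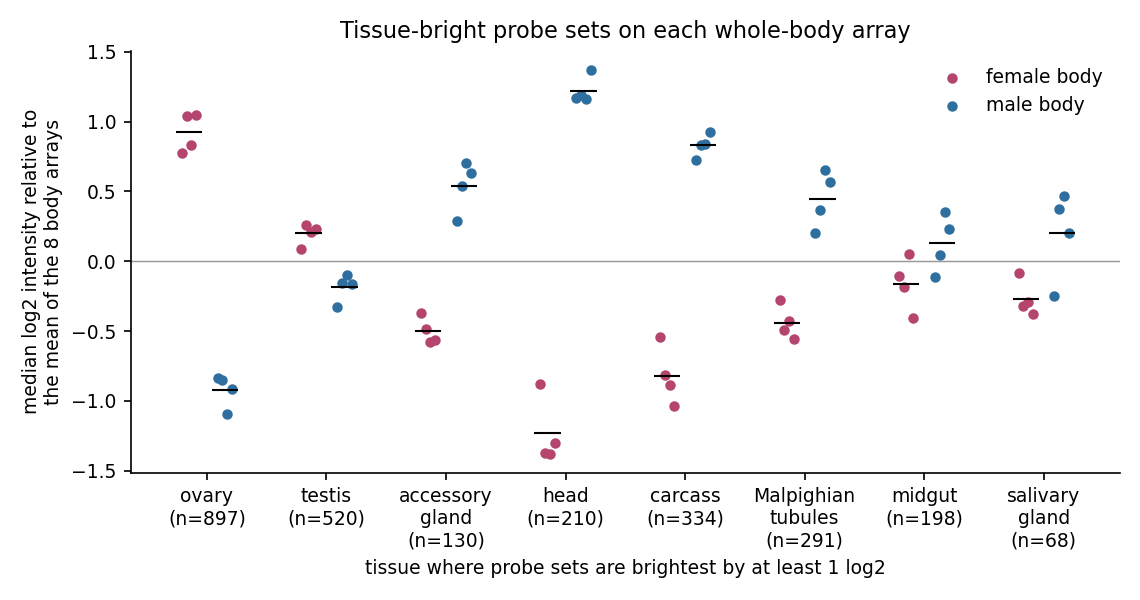
Median log2 intensity of tissue-bright probe sets on each of the 8 whole-body arrays, relative to the mean of those arrays, with female arrays left of male arrays and a bar at the mean of 4. Ovary probe sets are at 0.77 or above on all female arrays, carcass probe sets are at 0.73 or above and head probe sets at 1.16 or above on all male arrays, and the sexes overlap only for midgut and salivary gland. Under equal controls the median differences of Malpighian tubules, accessory gland, midgut and salivary gland turn positive. They stay below the median of all tested probe sets, which is then 1.30 log2.

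On the female side, genes with an ovarian maximum led the named genes. The files name no genes, and 1174 genes could be joined to a probe set through the relative abundances of the study's orthologue tables, 911 of them tested here. Those tables were read in part (2665 genes), and no joined gene belonged to the study's ovary clusters. Rankings of named genes therefore hold among the joined genes only. AGAP001135 (arm 2R) measured 8.50, 8.69, 8.96 and 8.73 in female bodies, against 3.54, 3.61, 3.47 and 3.72 in male bodies, at least 13.2-fold higher in females (adjusted p = 6.66e-10, limma). It stood at 9.30 in the ovary and at 7.86 in the testis, with every other dissected group under 4. AGAP000675 (X) measured 8.14 to 9.15 in females and 4.59 to 4.75 in males, at least 13.3-fold higher in females, and stood at 9.10 in the ovary and 3.26 in the testis. The pair differed in the testis. That the arrays of the sexes did not overlap was a condition of their choice. AGAP001452, AGAP001104 and AGAP001045, with an ovarian maximum as well, were 20.8-fold, 17.0-fold and 13.8-fold higher in females. AGAP001522 and AGAP000954 were also brightest in the ovary, with differences of 3.39 ± 0.41 and 3.38 ± 0.20 log2 (SE). The male arrays of AGAP001522 spread widely, at 3.17, 3.97, 5.35 and 5.06.

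A testis maximum did not go with a male-biased whole body. Of the 1080 probe sets brightest in the testis, 412 were female-biased (38.1%, with 30.6% of all tested) and 174 male-biased (16.1%, with 28.5%). The female-biased ones had the ovary as the next brightest tissue in 363 cases (88.1%), the male-biased ones in 3 cases (1.72%) and the uncalled ones in 232 of 494 (47.0%). The ovary exceeded the female carcass by a median of 2.37 log2 (quartiles 1.71 and 3.27) among female-biased probe sets and by -0.12 log2 (-1.41 and 0.02) among male-biased ones. Both groups were bright in the testis itself, at medians of 8.02 and 10.66 log2. In whole bodies the female-biased group had medians of 6.75 in females and 4.78 in males, and the male-biased group had 3.93 in females and 6.90 in males.

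AGAP009459 (3R) shows the first kind. It measured 8.62, 9.25, 9.47 and 9.53 in female bodies, against 5.59, 6.12, 5.80 and 5.58 in male bodies, and was 10.9-fold higher in females although the testis (11.50) outshone the ovary (9.14). AGAP008426 had the same order, at 6.02 to 6.58 in females and 3.09 to 3.43 in males, with 5.91 in the ovary and 7.52 in the testis. AGAP001620 (2R) shows the second kind, with 2.36, 3.46, 2.56 and 3.46 in female bodies and 7.99, 8.63, 8.69 and 8.37 in male bodies. It was at least 10.7-fold higher in males, stood at 13.61 in the testis and at 2.41 in the ovary. AGAP002365 was at least 5.82-fold higher in males in the same way, at 2.62 to 3.20 in females and 6.99 to 8.24 in males, with 12.57 in the testis. AGAP009741 and AGAP001735 had testis levels of 11.76 and 12.08, yet reached only 5.80 to 6.82 and 5.85 to 6.61 in male bodies.

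AGAP003661 and AGAP011334, brightest in the testis too, were 13.4-fold and 13.9-fold higher in males. They also stood at 7.77 and 8.28 in the male carcass, against 5.45 and 5.91 in the female carcass. AGAP001141, AGAP001336 and AGAP009743 were female-biased by 3.27, 3.18 and 3.16 log2. AGAP001336 was peculiar among them: it measured 5.75 to 6.29 in female bodies and 2.42 to 2.99 in male bodies, while its highest dissected level was only 4.10, in the testis, and its ovary level was 3.28. In 72 of 5089 probe sets with a female mean at the limit or above, the female body exceeded every dissected female tissue by at least 1 log2, and 56 of these were female-biased; the high female value that chose them also favours that call, so the count is a description only. In male bodies the same held for 6 of 4826, of which 3 were male-biased. Over all tested probe sets the shares were 30.6% and 28.5%.

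**Figure D4:**
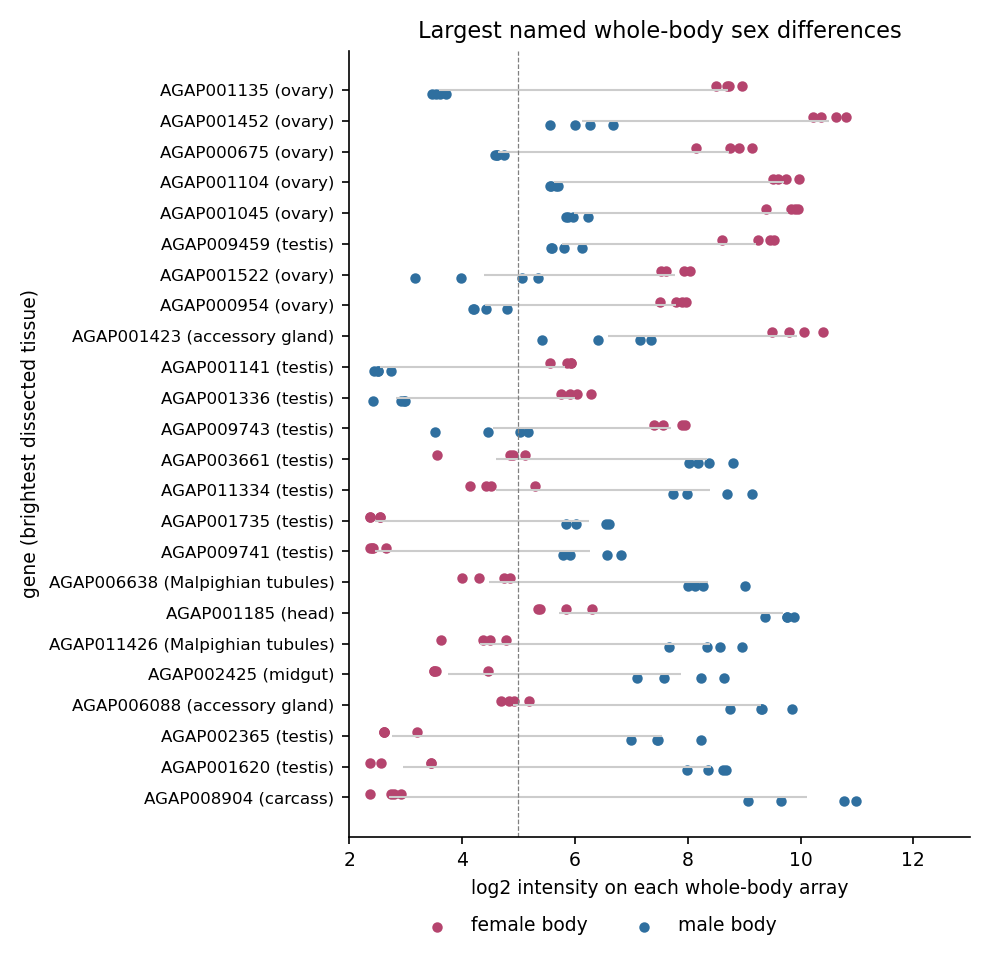
Log2 intensity on each female and male whole-body array for the 12 named genes with the largest differences in each direction, with the brightest dissected tissue in parentheses; grey lines join the means and the dashed line is the log2 limit of 5. The 24 genes were chosen among those whose female and male arrays do not overlap. The top 5 female genes peak in the ovary, while the male genes peak in testis, carcass, accessory gland, midgut, Malpighian tubules or head.

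Probe sets detected in a single dissected tissue were looked for on the whole-body arrays, where 29.8% of all 16884 probe sets were detected in females and 28.3% in males. A probe set enters the test through the sex in which it is detected, so the calls below are descriptions only. Over all tested probe sets 30.6% were female-biased and 28.5% male-biased. Of 330 ovary-only probe sets, 140 (42.4%) were detected in female bodies and 7 (2.12%) in male bodies, and 123 were female-biased. Of 1020 testis-only probe sets, 74 (7.25%) were detected in female bodies and 40 (3.92%) in male bodies. The 74 had a median ovary level of 4.89 log2, just under the limit, with 72 of them at 4 or above, and 52 were female-biased. Of all 1020, 52 were female-biased and 27 male-biased. Of 112 accessory-gland-only probe sets, 4 were detected in female bodies and 28 in male bodies, and 27 were male-biased. Head-only probe sets were detected in 12 (6.28%) of 191 cases in female bodies and in 65 (34.0%) in male bodies, and carcass-only ones in 21 (12.9%) of 163 and 68 (41.7%). For Malpighian tubules the shares were close, at 8 (4.55%) of 176 in female and 7 (3.98%) in male bodies. Midgut-only and salivary-only probe sets were detected more in females, at 25 (15.5%) of 161 and 17 (15.5%) of 110 in female bodies, against 8 (4.97%) and 8 (7.27%) in male bodies. Under equal controls 33.6% of all 16884 probe sets were detected in female bodies and 24.2% in male bodies. The head, carcass and Malpighian counts became 23, 39 and 13 in female bodies, against 38, 42 and 4 in male bodies. Midgut and salivary counts became 40 and 23 in female bodies, against 6 and 6 in male bodies. The ovary counts became 186 and 1, the testis counts 134 and 26, and the accessory gland counts 7 and 26.

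Genes with their maximum in the male accessory gland were found on both sides. AGAP006088 (2L) measured 5.19, 4.92, 4.84 and 4.70 in female bodies, against 8.75, 9.32, 9.85 and 9.29 in male bodies, 21.0-fold higher in males (adjusted p = 2.88e-08, limma). It stood at 14.03 in the accessory gland and at 10.59 in male Malpighian tubules. AGAP008401 had 4.50 to 4.95 in females and 6.68 to 7.40 in males, with 8.31 in the gland. AGAP009818 measured 7.95 to 8.97 in females and 4.98 to 6.23 in males, with 9.70 in the gland and 8.21 in the ovary. AGAP005581 measured 10.46 to 11.04 in females and 7.77 to 9.11 in males, with 11.64 in the gland and 10.59 in female carcass. AGAP001423 was 10.2-fold higher in female bodies, at 9.50 to 10.39 in females and 5.41 to 7.35 in males. It was assigned to the gland (9.26) because the mean of the carcass over both sexes was lower, although female carcass alone stood at 10.73.

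Whether a whole-body difference also existed inside the brightest tissue was read from the dissected arrays, which share no array with the whole bodies. In the head it mostly did not pass the test. Of 347 male-biased probe sets brightest in the head, 30 (8.65%) were male-biased in the dissected head, 11 were female-biased there, 302 were not called and 4 were not tested; in the head 3.54% of all tested probe sets were male-biased. The median difference was -2.26 log2 in the body and -0.40 log2 in the head. Carcass lay between, with 214 of 517 male-biased probe sets (41.4%) male-biased in the dissected carcass too (18.0% of all tested there), and medians of -2.01 and -0.83 log2. In Malpighian tubules, where 18.4% of tested probe sets were called in either direction, 71 of 274 (25.9%, with 10.6% male-biased of all tested) and in the salivary gland 22 of 67 (32.8%, with 13.1%) were male-biased in both. In the midgut the share was highest, 77 of 132 (58.3%, with 16.3%), with medians of -1.92 log2 in the body and -1.38 log2 in the tissue.

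Female-biased probe sets brightest in a somatic tissue were fewer, and more of them were sex-biased in the tissue as well. In carcass 36 of 39 (92.3%, with 15.1% of all tested there), in midgut 61 of 75 (81.3%, with 14.3%), in salivary gland 33 of 49 (67.3%, with 16.2%), in head 4 of 7 (57.1%, with 7.06%) and in Malpighian tubules 22 of 64 (34.4%, with 7.80%) were female-biased in the tissue. The median tissue difference was larger than the median body difference in salivary gland, carcass, head and midgut, and smaller in Malpighian tubules (0.65 log2 in the tubules and 1.54 log2 in the body). For the 22 female-biased probe sets brightest in the salivary gland by at least 1 log2, the median was 4.15 log2 in the body and 11.27 log2 in the gland. For the 20 of the carcass it was 2.31 log2 in the body and 4.37 log2 in the carcass.

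**Figure D5:**
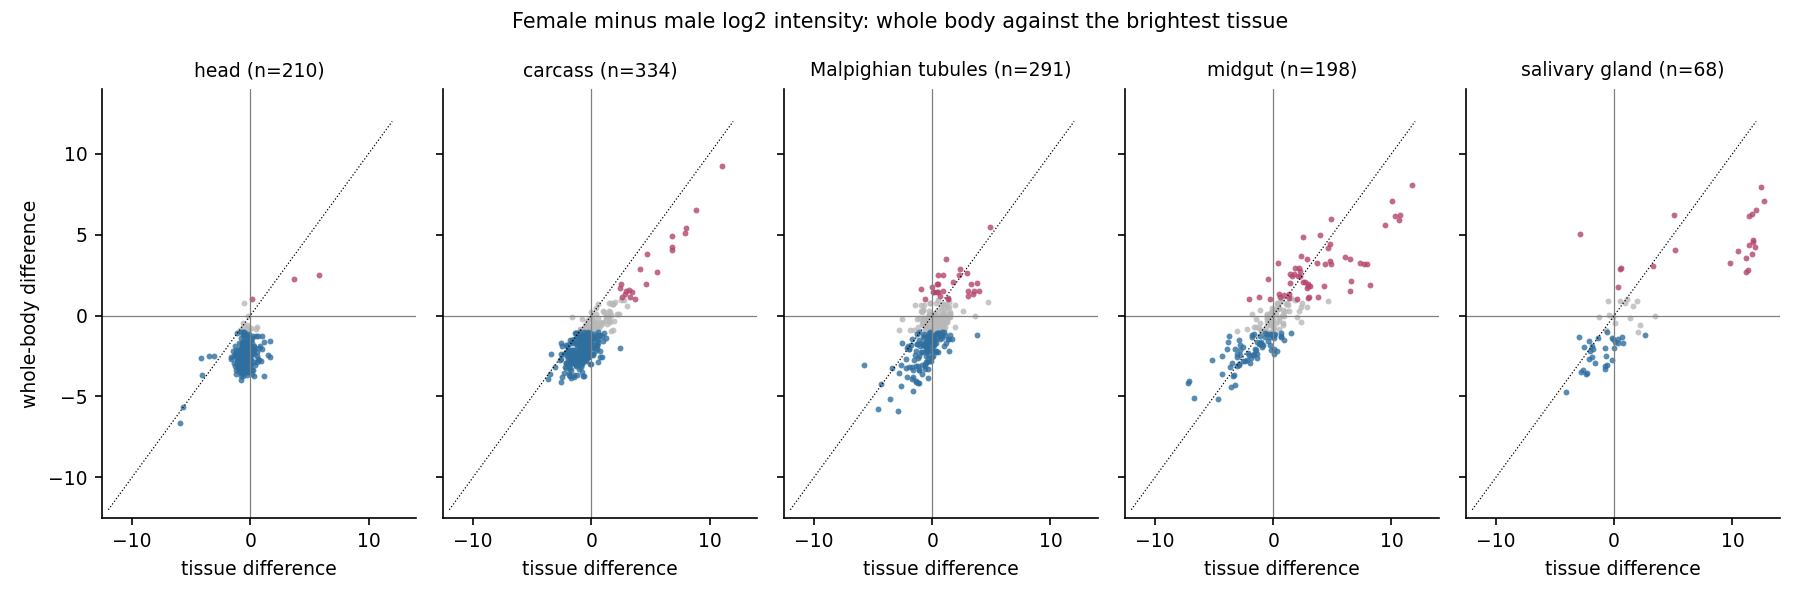
Female minus male log2 intensity in the whole body (vertical axis) against the same difference in the somatic tissue where the probe set is brightest by at least 1 log2 (horizontal axis); points are coloured by the whole-body call (red female-biased, blue male-biased, grey not called) and the dotted line marks equal differences. Most head points sit below 0 on the vertical axis and near 0 on the horizontal one, while midgut and carcass points run along a slope.

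Counted over all 5 somatic tissues, 564 of 1784 female-biased probe sets (31.6%) were female-biased in at least 1 of them, which was 31.8% of the 1776 probe sets female-biased in any; of all 5821 tested 25.2% were female-biased in at least 1. Of 1661 male-biased probe sets 1002 (60.3%) were male-biased in at least 1, which was 54.7% of 1831; of all tested 27.0% were male-biased in at least 1. No somatic tissue gave a call for 1150 female-biased (64.5%) and 529 male-biased (31.8%) probe sets. Calls of the opposite sign only were found for 70 female-biased and 130 male-biased probe sets. The counts without a call and of opposite sign have no share over all tested probe sets beside them. They are descriptions only.

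The 2 named head genes of the male-biased group differed far less in the head than in the body. AGAP001185 (2R) measured 6.31, 5.35, 5.39 and 5.84 in female bodies and 9.76, 9.37, 9.77 and 9.89 in male bodies, a difference of -3.97 ± 0.24 log2. In the head it differed by -0.80 log2 (10.47 in females and 11.27 in males, adjusted p = 0.0207) and was not called for its size. AGAP000129 (X) measured 6.01 to 6.86 in female bodies and 9.94 to 10.15 in male bodies, while the head had 11.28 in females and 11.56 in males (adjusted p = 0.24). The body difference exceeded that of the head by 3.17 and 3.38 log2, each past the threshold in a model of both (adjusted p = 1.73e-07 and 4.77e-09). Both genes were chosen for large whole-body differences, which enter that term, so these p-values are a description. Across 6059 probe sets this model found 1730 more female in the body than in the head (28.6%) and 1715 more male (28.3%). Under equal controls these were 3142 (49.9%) and 528 (8.38%) of 6297, and AGAP001185 and AGAP000129 stayed more male in the body past the threshold.

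A pair of Malpighian genes also differed more in the body than in the tubules. AGAP006638 (2L) measured 4.86, 4.00, 4.31 and 4.75 in female bodies and 8.01, 8.12, 9.02 and 8.28 in male bodies, at least 10.3-fold higher in males, and 12.52 in female and 12.89 in male tubules (adjusted p = 0.27). AGAP011426 (3L) measured 3.64 to 4.78 in female and 7.67 to 8.97 in male bodies, and 11.66 in female and 13.01 in male tubules, where it was called male-biased as well (adjusted p = 1.72e-04). Its body difference exceeded that of the tubules by 2.72 log2 (adjusted p = 7.30e-06). AGAP011426 was likewise chosen for its whole-body difference, so this p-value is a description. In the same model 30.4% of 6321 probe sets were more female in the body than in the tubules and 25.4% more male, and under equal controls 49.4% and 10.9% of 6516. Malpighian genes also occurred on the female side. AGAP007619 measured 10.90 to 11.31 in female and 8.32 to 8.82 in male bodies. On the deposited scale it differed as much in the tubules (13.73 in females and 11.45 in males). Under equal controls it was more female in the body than in the tubules by 1.06 log2, past the threshold. AGAP008632 measured 8.08 to 8.79 in female and 5.09 to 6.91 in male bodies and differed by 0.92 log2 in the tubules but by 3.51 log2 in the midgut and 5.13 log2 in the carcass.

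Midgut genes were called in both directions in the body, and those named were called the same way in the midgut on the deposited scale. The hybridisation controls were higher on female than on male midgut arrays, by a median of 0.91 log2. Calls inside the midgut were not repeated under equal controls. AGAP000570 (X) measured 9.80, 10.30, 10.68 and 9.42 in female bodies and 7.86, 7.62, 7.38 and 7.18 in male bodies, and 12.89 in female and 11.49 in male midgut. AGAP001638 measured 4.92 to 5.72 in female bodies and 4.09 to 4.33 in male bodies, where it stayed under the limit, against 10.73 in female and 6.93 in male midgut. AGAP010042 measured 5.14 to 6.29 in female and 7.79 to 8.61 in male bodies, and 10.45 in female and 11.79 in male midgut. AGAP002425 (2R) was at least 7.41-fold higher in male bodies, at 3.50 to 4.46 in females and 7.10 to 8.65 in males, and differed by -7.19 log2 in the midgut (4.15 in females and 11.34 in males). Its midgut difference was larger than its body difference by 3.05 log2 (adjusted p = 2.21e-04). Under equal controls body minus midgut was 4.84 log2 for AGAP002425 and 2.93 log2 for AGAP000570 (1.14 as deposited). For AGAP001638 it was -0.84 log2 (-2.63 as deposited) and for AGAP010042 0.50 log2 (-1.29 as deposited). These last 2 genes were then not past the threshold.

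Carcass and salivary genes completed the named set. AGAP008904 (3R) had the largest difference of any named gene, with 2.73, 2.79, 2.92 and 2.36 in female bodies and 9.07, 9.66, 10.77 and 10.97 in male bodies. On the deposited scale it had a like difference in the carcass (3.09 in females and 10.90 in males). Under equal controls it was more female in the body than in the carcass by 1.76 log2, past the threshold. AGAP003636 measured 7.34 to 8.10 in female and 10.85 to 11.80 in male bodies; it was male-biased in head, carcass and salivary gland and female-biased in the midgut (9.01 in females and 6.78 in males). AGAP003571 measured 6.30 to 6.86 in female and 9.39 to 10.32 in male bodies. AGAP002198 and AGAP006548 were female-biased by 1.48 and 1.31 log2 in the body and by 3.44 and 2.84 log2 in the carcass. In the model of both, body minus carcass was -1.96 and -1.52 log2, past the threshold. Under equal controls it was -0.59 and -0.15 log2, not past the threshold. Female body arrays 1 and 2 of these 2 genes (9.72 and 9.12, 10.76 and 10.54) stood above arrays 3 and 4 (7.84 and 7.73, 9.70 and 9.31). AGAP005256, brightest in the salivary gland, measured 3.76 to 4.32 in female and 7.48 to 7.87 in male bodies. AGAP002557, also of that gland, spread over 4.11 to 5.86 in females and 6.07 to 9.23 in males without overlap.

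The whole body was set against the carcass, the thorax and abdomen without the organs dissected separately, in 1 model of sex and sample type. Of 6029 probe sets, 1643 were more female in the body than in the carcass (27.3%) and 1337 more male (22.2%). Under equal controls, run in the body and in the carcass, these were 3801 (60.2%) and 271 (4.30%) of 6309, so the balance between the directions depends on the scale. Among the largest named shifts towards females, AGAP001135, AGAP000675, AGAP001104 and AGAP001141 shifted by 4.51, 4.41, 4.24 and 3.57 log2. Those towards males were AGAP006793, AGAP001620, AGAP002365 and AGAP007612, at -5.68, -4.80, -4.62 and -4.49 log2. All 8 kept their direction under equal controls and stayed past the threshold, at 4.94 to 5.88 log2 towards females and -4.31 to -3.12 log2 towards males. AGAP006793 (2L) measured 4.89 to 5.74 in female and 7.78 to 7.99 in male bodies, but 6.34 in female and 3.18 in male carcass, and it was brightest in male midgut (11.14). AGAP007612 measured 7.12 to 8.60 in female and 9.10 to 10.85 in male bodies, 6.84 in female and 4.50 in male carcass, and 13.27 in male midgut. In all, 23 probe sets were female-biased in the body and male-biased in the carcass, and 32 were the reverse.

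The only genes of the marker lists that could be joined were a fat body and a muscle gene. AGAP001826, the lipophorin that carries lipids in the blood, measured 12.96, 12.14, 12.74 and 11.61 in females and 11.82, 11.84, 13.66 and 13.03 in males (adjusted p = 0.64). AGAP010147, muscle myosin heavy chain, measured 7.45, 5.61, 6.92 and 6.13 in females and 6.31, 6.76, 9.45 and 8.79 in males, a difference of -1.30 ± 0.65 log2 (adjusted p = 0.0901). In both genes the arrays of the sexes overlapped, and male arrays 3 and 4 were the brightest. Without male replicate 1 AGAP010147 differed by -1.81 log2 and was called male-biased (adjusted p = 0.0177). AGAP001826 turned to a positive difference without female replicate 4 (0.03 log2) or male replicate 3 (0.13 log2) and under equal controls (0.82 log2), and was not called in any of these.

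The study's own clusters of orthologues, built on the dissected tissues of this series and therefore not independent of them, were read on the body arrays. Of 38 tested genes of its head cluster, described there by phototransduction and signal transduction, 0 were female-biased and 32 male-biased, with a median of -2.54 log2. The carcass clusters, described by metabolism and cellular respiration, had 7 female-biased and 85 male-biased of 118 genes (median -1.66 log2) and 2 and 26 of 62 (median -0.91 log2). The testis cluster, described by microtubule-based process and spermatogenesis, had 114 female-biased and 22 male-biased of 270 genes, with a median of 0.73 log2. The Malpighian cluster had 11 and 32 of 111, the midgut cluster 9 and 16 of 40, and the cluster of both 2 and 13 of 41. In the salivary gland cluster, which the study matched to Drosophila clusters of the male accessory gland, 12 were female-biased and 7 male-biased of 29. The study described that match by protein folding and signal peptide processing. Cluster A8, which the study's summary does not describe, had 6 and 7 of 27. The 2 ovary clusters held no joined gene, since the tables were read in part, and are not analysed here. Over all 911 joined genes 232 were female-biased and 257 male-biased, with a median of -0.07 log2. Under equal controls the head cluster had a median of -1.31 log2, the larger carcass cluster -0.60 log2 and the testis cluster 1.78 log2, while the other carcass cluster (0.14 log2), the Malpighian (0.73 log2), midgut (0.60 log2) and combined (0.48 log2) clusters changed sign, as did all joined genes (1.08 log2).

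By the arm in the probe set identifier, the X held a smaller share of calls of either kind than all tested probe sets on the deposited scale, though under equal controls its female-biased share (57.6%) was not below that of all (56.6%): 91 of 361 were female-biased (25.2%, with 30.6% of all tested) and 85 male-biased (23.5%, with 28.5%). On 2L, 2R and 3L female-biased shares were 31.9%, 32.5% and 32.1%, and male-biased shares 28.5%, 27.0% and 26.6%. On 3R the male-biased share was the larger on the deposited scale, with 348 female-biased (28.0%) and 408 male-biased (32.8%) of 1244; under equal controls they were 53.1% and 16.3%. Among probe sets brightest in the ovary the X had 51 female-biased and 1 male-biased of 86, with a median of 1.36 log2, against medians of 1.38 to 1.56 log2 on the 4 autosomal arms.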

How the data were processed

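Whole bodies of both sexes and dissected tissues were hybridised to Affymetrix arrays, and per the labels the authors normalized them with GCRMA; the study's methods give normalization within each tissue. The deposited values are linear intensities of probe sets, which were taken to log2 here. Only probe sets with identifiers beginning Ag were used. Sexes were compared on log2 values with limma 3.58.1 (lmFit and eBayes, R 4.3.3), with Benjamini-Hochberg adjustment over all 5821 probe sets tested. A probe set was called at a difference of at least 1 log2 and an adjusted p under 0.05. Where a sex was under log2 5 on all 4 arrays, the fold is a lower bound against that limit. Whole body and tissue differences were set against each other with an interaction term. Tables were made with Python 3.11.15, pandas 2.3.3 and numpy 2.4.6, and figures with matplotlib 3.10.9.

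Genes were joined to probe sets by matching relative abundances over at least 3 tissues in the study's supplementary tables within 0.0006. This joined 1174 genes, and 13 that fitted several probe sets were left out. Named genes were the 12 largest joined differences in each direction without overlap of the arrays, the 2 largest per direction among those at least 1 log2 brighter in a tissue than in the next, the 4 largest shifts each way between body and carcass, and the listed markers. Members and lists were chosen with earlier results of these data known. Levels across tissues are approximate, since the tissues were normalized separately. Array number, 4 per sex, limits the precision. P-values measure the spread between pooled replicates. In simulated data with 200 of 5821 probe sets changed, the test recovered 80% at 1.5 log2 and 100% at 3 log2, with 7 false calls among 186. The simulated arrays had independent noise and no shift between the sexes, and far fewer changes than the 59.2% called in the real data. The simulation therefore does not measure how calls depend on the scale. Alternatives were the detection limit, the fold threshold, the normalization, variance moderation, cross-hybridising probe sets, the replicate block, each replicate left out and the tracing margin. Equal hybridisation controls (sexes within the body and within a tissue), interactions with tissues other than the carcass, and tracing without the testis were added after seeing the data.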

Additional observations from a re-analysis of the deposited data

Results flagged for a closer look

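On single arrays, 6 of 96 groups of 4 (48 probe sets in 2 sexes) held a value far from the other 3, where chance gives about 1 in 20. Female replicate 4 stood apart in 3 of them: AGAP005256 measured 3.76 against 4.24 to 4.32, AGAP002425 measured 4.46 against 3.50 to 3.55, and AGAP002365 measured 3.20 against 2.62 in each of the others. The unnamed ovary probe set on 3R measured 13.67 in female replicate 3 against 14.61 to 14.67. AGAP001336 measured 2.42 in male replicate 1 against 2.93 to 2.99, and AGAP001638 measured 4.33 in male replicate 4 against 4.09 to 4.12. Of the 6 values, all but that of the ovary probe set lay under the limit of log2 5.

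Of 48 named probe sets, 39 differed in their sex difference between whole body and carcass by the interaction term in limma. In the body 15 were more female and 24 more male. Over all 6029 probe sets the shares were 27.3% and 22.2%, and under equal controls 60.2% and 4.30% of 6309. Most of the 48 were chosen for large whole-body differences, which enter that term. The 8 named for the largest such shifts were chosen by that same term, so their p-values are a description and no separate test. It was more female in the body for AGAP001135 by 4.51 log2 (adjusted p = 2.93e-07), AGAP000675 by 4.41 log2 (6.16e-09), AGAP001104 by 4.24 log2 (3.32e-08) and AGAP001141 by 3.57 log2 (3.72e-09). It was more male in the body for AGAP006793, at -5.68 log2 (1.33e-08), AGAP001620, at -4.80 log2 (6.44e-06), AGAP002365, at -4.62 log2 (2.50e-08), and AGAP007612, at -4.49 log2 (4.67e-05).

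Among probe sets outside the comparison, some with no Anopheles identifier gave signal in female bodies and little in male bodies. The array's human Alu control probe set averaged 7.74 ± 1.02 log2 (SD, n = 4) in female bodies and 2.41 ± 0.02 log2 in male bodies. In dissected midgut it stood at 10.88 log2 in females and 2.77 log2 in males, but it averaged 6.44 log2 in male salivary gland and 5.35 log2 in male accessory gland, and the highest single male array gave 11.2 log2. The 3 brightest in females of 290 probe sets named by a plain number averaged 12.69, 7.14 and 6.03 log2 in female bodies and 4.04, 2.79 and 2.39 log2 in male bodies. Female midgut gave 14.65, 11.09 and 10.62 log2 for these 3.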

How the results depend on the processing

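Shifting the arrays to equal hybridisation controls, chosen after seeing the data, gave 3426 female-biased and 762 male-biased probe sets, a female share of 81.8% of calls against 51.8% on the deposited scale, and moved the median of all tested probe sets to 1.30 log2 from 0.10 log2. Quantile normalization gave 1686 and 1712. At a difference of at least 2 log2 the counts were 904 and 846. The tracing fell with stricter rules by construction. With a margin of 1 log2, 637 female-biased probe sets were brightest in the ovary and 186 in the testis, and 241 male-biased ones in carcass, 196 in head, 140 in Malpighian tubules and 64 in accessory gland. At 2 log2 these were 601, 176, 263, 220, 101 and 67, with 108 male-biased in the testis. Leaving out 1 replicate gave 1753 to 1864 female-biased and 1627 to 1770 male-biased probe sets. The comparison of body with carcass moved to 3801 more female and 271 more male probe sets under equal controls. Of 100 other alternatives to the counts, 81 stayed within 1.5 times. Of 951 alternatives for 48 named probe sets, 942 kept direction and call. AGAP001826 ranged over -0.48 to 0.13 log2 with 1 replicate left out, and reversed to 0.82 log2 (equal controls), 0.03 (without female replicate 4) and 0.13 (without male replicate 3). AGAP002198 lost its call at 2 log2 and with no detection limit (adjusted p = 0.0644, limma), AGAP006548 at 2 log2, and AGAP001638 at 2 log2 and under quantile normalization (0.99 log2).

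Deviations of same-numbered female and male arrays correlated at -0.01, 0.19, 0.35 and 0.03. Those of arrays with different numbers correlated at -0.25 to 0.21. These values do not settle whether the replicate numbers pair the samples. With the replicate block 1785 probe sets were female-biased and 1663 male-biased. Signal near the floor limits the folds of dim probe sets, the number of arrays limits precision, and the cause of these changes was not tested.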

Other observations

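In 72 of 5089 probe sets the whole female exceeded every dissected female tissue by at least 1 log2, by up to 2.53 log2, and in males 6 of 4826 did so, by up to 1.44 log2. The median whole body lay 1.01 log2 under its brightest dissected tissue in females and 1.02 log2 under it in males.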
